A study of Mus musculus with 4 samples.

Results

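KLF genes outside the erythroid set are Klf2, Klf3, Klf4, Klf6, Klf7, Klf9, Klf10 and Klf13, the Krüppel-like factors other than Klf1 taken up here. They are 8 of the 18194 genes that the arrays named through at least 1 probe set of their own. Every probe set whose platform annotation gave 1 of these symbols alone was included, 30 in all. Expression was read on 2 arrays of MN1 leukemic bone marrow and 2 arrays of Gr1/Mac1 cells, which are mature myeloid marrow cells sorted for Gr1 and CD11b. The leukemic cells were C57BL/6J marrow taken 4 days after 150 mg/kg of 5-fluorouracil and stimulated for 48 hours with interleukin-3, interleukin-6 and stem cell factor. Retroviral transfer of MN1, sorting for GFP and transplantation into syngeneic recipients irradiated with 750 cGy followed. The recipients also received fresh marrow, so leukemic marrow can hold cells that do not carry MN1, and the labels do not say whether it was sorted again. The Gr1/Mac1 cells came from healthy mice, per the design text, and the labels give C57BL/6J as their strain. The labels attach the treatment text to all 4 arrays, and it was read here as that of the leukemic cells. No normal immature cells were among the arrays, so leukemia and immaturity cannot be told apart.

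Krüppel-like factors are transcription factors whose zinc fingers, at the carboxyl end, bind GC-rich and CACCC-containing DNA, and the SP factors share this domain. The rest of the protein sets the partners. KLF2, KLF4, KLF6 and KLF7 work with acetyltransferase coactivators, KLF3 recruits CtBP corepressors, and KLF9, KLF10 and KLF13 recruit SIN3 corepressors. In blood, KLF4 is known for promoting monocyte differentiation and KLF2 for keeping lymphocytes and myeloid cells quiescent, while KLF1 directs red cell genes.

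The values are MAS5 signals, linear intensities on which each array had been scaled to the same trimmed mean. A log2 fold change is MN1 leukemic minus Gr1/Mac1 on log2(signal + 16), which understates the change of dim probe sets, and ± is the SD (n = 2 arrays). In an exact permutation test, 2 arrays against 2 can give no two-sided p below 0.33, so adjusted p values come from limma fitted to all 27022 tested probe sets. CD11b is encoded by Itgam, which read 584 and 306 in leukemic marrow and 4288 and 4407 in Gr1/Mac1 cells. The Mn1 probe set, too dim to be tested, read 17.7 and 92.6 in leukemic marrow and 3.92 and 12.1 in Gr1/Mac1 cells. Gr1/Mac1 replicate 2 stood apart in the Y-linked gene Eif2s3y, at 4409, against 2.51 to 3.01 on the other arrays. The X-linked gene Xist read 114 on that array, 7138 on Gr1/Mac1 replicate 1 and 14512 and 19642 in leukemic marrow. The labels give no sex. Beta-actin probe sets at the 3′ end, set against those at the 5′ end, which loses signal as RNA or its labelling shortens, gave ratios of 3.28 and 3.09 in leukemic marrow and of 1.32 and 1.39 in Gr1/Mac1 cells. The part of this difference in the results was not tested.

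Of the 8 genes, each read from its brightest probe set, 7 were lower in MN1 leukemic marrow, 0 were higher and 1, Klf9, did not pass. Over all 12378 genes read the same way, 15.0% were lower, 26.1% were higher and 41.1% were called in either direction. The 8 genes were chosen with earlier results of these data known, so their share is no measure of the family. Of 7 tested KLF genes beyond them, Klf1 included, 3 were higher and 1 lower. The median log2 fold change was -1.66 over the 8 genes and 0.28 over all genes. Of the 27 tested KLF probe sets, 14 were lower and 2 were higher, and over all tested probe sets 13.6% were lower, 21.2% were higher and 34.9% were called. The median over the 27 was -0.95 and over all probe sets 0.19. The brightest probe sets read at least 174 on every array, above the lowest kept mean signal of 47.65, so none of the 8 genes entered the test through 1 group alone. Without MN1 leukemic replicate 1, 4 of the 8 genes were called, all lower. In bulk RNA, fewer cells of a type and less RNA per cell cannot be told apart.

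**Figure D1:**
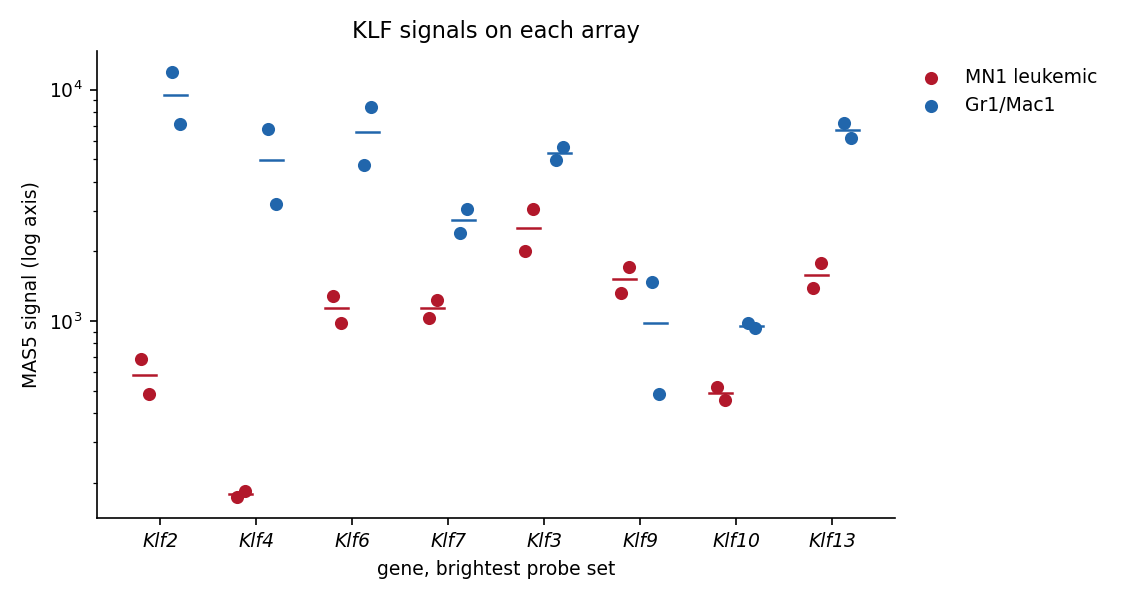
MAS5 signal (vertical, log axis) of the brightest probe set of each KLF gene, with MN1 leukemic arrays in red and Gr1/Mac1 arrays in blue; points are arrays and bars are means of 2. Both leukemic points lie below both Gr1/Mac1 points for every gene other than Klf9, where the groups overlap.

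The largest differences were those of Klf4 and Klf2. Klf4, a factor of monocyte differentiation and of induced pluripotency, read 174 and 185 in leukemic marrow and 6741 and 3216 in Gr1/Mac1 cells (probe set 1417394_at). The groups lay far apart, and the Gr1/Mac1 mean was 27.8 times the leukemic mean. Klf4 was lower by a log2 fold change of -4.58 (SE 0.37, adjusted p = 0.00055). Its other probe set, 1417395_at, built on the same source sequence, read 93.8 and 72.9 in leukemic marrow and 1521 and 716 in Gr1/Mac1 cells. It was also lower, at -3.42 (SE 0.41, adjusted p = 0.0017).

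Klf2, which keeps lymphocytes quiescent and governs their traffic, had 1 probe set, 1448890_at. It read 681 and 484 in leukemic marrow and 11929 and 7087 in Gr1/Mac1 cells. Again no leukemic array came near a Gr1/Mac1 array, and replicate 1 was the higher of the Gr1/Mac1 arrays for Klf2 as for Klf4. The log2 fold change was -3.96 (SE 0.33, adjusted p = 0.00057), with the Gr1/Mac1 mean 16.3 times the leukemic mean. Klf2 ranked 80 and Klf4 ranked 32 of the 27022 probe sets, counted from the lowest fold change. Both were lower under all 16 alternative settings, with log2 fold changes of -5.27 to -3.59 for Klf2 and -5.84 to -4.05 for Klf4.

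The 250 bases before the annotated start of Klf2, Klf4 and Klf6, the genes that fell furthest, and of Klf9, the gene with no lower probe set, are shown so that the sites of the family and of its inducers can be read (RefSeq, GRCm38.p6, 5′ to 3′ on the gene's strand). Capitals mark the motifs searched on both strands, the GC box GGGCGG, the CACCC box CACCC and the MEF2 motif (CTA, any 4 bases, then TAG), and neighbouring matches can share bases.
Klf2, chr8:72318812-72319061, plus strand: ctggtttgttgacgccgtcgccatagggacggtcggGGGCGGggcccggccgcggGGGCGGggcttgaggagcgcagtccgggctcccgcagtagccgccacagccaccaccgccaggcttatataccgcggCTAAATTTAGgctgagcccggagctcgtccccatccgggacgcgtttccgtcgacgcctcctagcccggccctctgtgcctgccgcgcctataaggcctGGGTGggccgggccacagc
Klf4, chr4:55532476-55532725, minus strand: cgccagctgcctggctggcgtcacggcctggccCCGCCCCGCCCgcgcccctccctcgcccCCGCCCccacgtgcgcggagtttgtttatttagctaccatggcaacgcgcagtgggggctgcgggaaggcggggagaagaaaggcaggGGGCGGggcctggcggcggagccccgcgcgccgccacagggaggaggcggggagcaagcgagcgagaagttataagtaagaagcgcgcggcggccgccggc
Klf6, chr13:5861239-5861488, plus strand: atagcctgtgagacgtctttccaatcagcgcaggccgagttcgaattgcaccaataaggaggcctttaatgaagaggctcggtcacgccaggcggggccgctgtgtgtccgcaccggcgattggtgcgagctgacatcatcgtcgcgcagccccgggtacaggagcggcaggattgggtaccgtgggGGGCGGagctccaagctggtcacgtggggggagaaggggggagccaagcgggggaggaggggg
Klf9, chr19:23140976-23141225, plus strand: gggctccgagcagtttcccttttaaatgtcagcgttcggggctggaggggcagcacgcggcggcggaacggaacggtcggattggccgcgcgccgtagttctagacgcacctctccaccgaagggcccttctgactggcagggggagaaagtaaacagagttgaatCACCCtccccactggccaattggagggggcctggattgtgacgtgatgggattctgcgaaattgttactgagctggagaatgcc

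The Klf2 window held 1 match to the MEF2 motif, between 118 and 109 bases before the start, where MEF2 factors can bind downstream of the kinase ERK5. It also held 2 GC boxes and 1 CACCC box. The Klf4 window held 4 GC boxes, the Klf6 window 1 GC box, and the Klf9 window 1 CACCC box with 0 GC boxes. Of all 32851 windows of this length, 3.2% held the MEF2 motif, 32.7% a GC box and 52.0% a CACCC box. A match describes the letters and not a bound site. Klf3, Klf7 and Klf13 were searched as well and held 6, 1 and 3 GC boxes, 5, 3 and 1 CACCC boxes and 0 MEF2 matches each. Klf10 had no promoter window here and was not searched.

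Klf6, an early response gene and growth suppressor that also acts in inflammatory macrophages, was lower in 4 of its 5 probe sets. Its brightest probe set, 1433508_at, read 1284 and 984 in leukemic marrow and 4730 and 8428 in Gr1/Mac1 cells. The log2 fold change was -2.47 (SE 0.33, adjusted p = 0.0023), and the groups did not overlap. Probe set 1447448_s_at read 908 and 585 in leukemic marrow and 5796 and 5836 in Gr1/Mac1 cells, a difference of -2.97 (SE 0.28, adjusted p = 0.00085). The dimmest, 1459718_x_at, is built on the same source sequence yet read 182 and 122 in leukemic marrow and 117 and 585 in Gr1/Mac1 cells. Its groups overlapped and it did not pass (-0.77, SE 0.68, 95% interval -2.37 to 0.83). Its sign turned with 1 array: it was 0.32 without Gr1/Mac1 replicate 2 and -1.86 without Gr1/Mac1 replicate 1 (adjusted p = 0.58 and 0.012, range over alternatives 0.012 to 0.74). Probe sets 1427742_a_at (-2.08) and 1418280_at (-2.34) were lower. The value of 1418280_at moved to -2.96 without Gr1/Mac1 replicate 1 and to -1.71 without Gr1/Mac1 replicate 2.

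Klf7, which is known for neuron outgrowth, was lower by less. Its brightest probe set, 1449439_at, read 1032 and 1232 in leukemic marrow and 2395 and 3044 in Gr1/Mac1 cells, with no overlap. The log2 fold change was -1.25 (SE 0.26, adjusted p = 0.0099). All 4 of its probe sets rest on the same source sequence and are not independent readings. They ran between -1.63 and -0.72, and 3 of them were called, with 1419356_at at -0.72 not passing (adjusted p = 0.065). The call of the brightest was lost without MN1 leukemic replicate 1 (adjusted p = 0.092) and without MN1 leukemic replicate 2 (0.06), over a range of 0.00049 to 0.092. That of 1419354_at was lost without MN1 leukemic replicate 1 (0.07) and that of 1419355_at without MN1 leukemic replicate 2 (0.09), while 1419356_at was called without Gr1/Mac1 replicate 1 (0.038). Probe set 1419356_at was also called under quantile normalization (-0.91, adjusted p = 0.033), equal medians (-1.04, 0.033) and control scaling (-2.03, 0.00098). With the lowest 60% of signals left out it was called at a rounded adjusted p of 0.05. No left-out array turned a Klf7 sign.

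Klf3, a repressor that acts through CtBP in red cell and B cell development, was called in 1 of its 6 tested probe sets. Its brightest, 1454666_at, read 1999.8 and 3063 in leukemic marrow and 4963 and 5642 in Gr1/Mac1 cells. This was lower by -1.09 (SE 0.28, adjusted p = 0.024). The call was lost without MN1 leukemic replicate 1 (-0.79, adjusted p = 0.20) and without Gr1/Mac1 replicate 2 (-1.0, adjusted p = 0.051), over a range of 0.00079 to 0.20. None of the other 5 tested probe sets passed, and they ran between -0.81 and -0.0044. At equal medians 1429360_at alone of these was called (-1.02, adjusted p = 0.042). Under control scaling, where the median over all probe sets was -1.07, all 5 were called lower, at -2.01 to -1.28. Among them, 1429360_at read 864 and 1015 in leukemic marrow and 1205 and 1951 in Gr1/Mac1 cells (-0.70, adjusted p = 0.12), and without Gr1/Mac1 replicate 1 it was called (-1.05, adjusted p = 0.019). Without the same array 1431630_a_at reached -0.87 (adjusted p = 0.05), against -0.49 with it. Probe set 1441200_at read 273 and 461 in leukemic marrow and 334 and 381 in Gr1/Mac1 cells, which overlap, and its log2 fold change was -0.0044 (95% interval -0.82 to 0.81). Probe sets 1421604_a_at (-0.66, adjusted p = 0.16) and 1442920_at (-0.81, adjusted p = 0.26) did not pass either. Probe set 1458487_at fell under the filter on low signals, at 24.8 and 17.0 in leukemic marrow and 8.44 and 30.2 in Gr1/Mac1 cells.

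**Figure D2:**
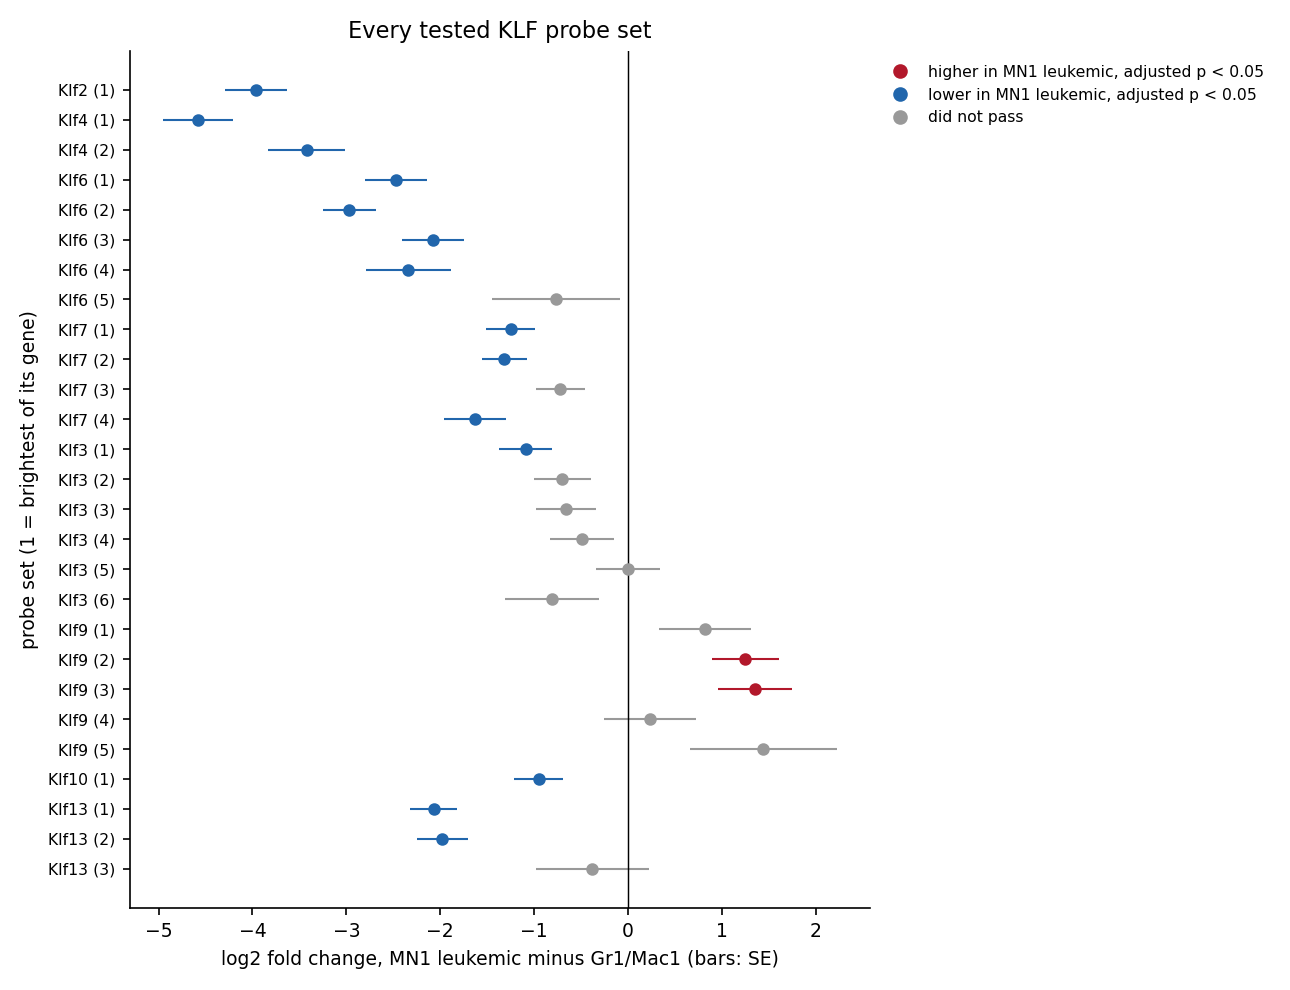
Log2 fold change (horizontal, MN1 leukemic minus Gr1/Mac1) of each of the 27 tested KLF probe sets, numbered within a gene by mean signal; points are estimates, bars are the SE, and colour shows the limma call. All Klf2 and Klf4 points lie below -3, Klf3 points lie between -1.09 and -0.0044, and the Klf9 points lie above 0.

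In the SIN3-binding group, Klf13 and Klf10 were lower and Klf9 did not pass. Klf13, a regulator of the chemokine gene Ccl5 in activated T cells, read 1384 and 1788 in leukemic marrow and 7161 and 6211 in Gr1/Mac1 cells on its brightest probe set, 1436316_at. The groups lay well apart, at -2.07 (SE 0.25, adjusted p = 0.0017), and Klf13 stayed lower under every alternative setting (-3.39 to -1.89). Probe set 1432543_a_at read 764 and 603 in leukemic marrow and 3099 and 2412 in Gr1/Mac1 cells, also lower, at -1.98 (SE 0.27, adjusted p = 0.0023). The dim probe set 1456030_at read 46.3 and 51.2 in leukemic marrow and 121 and 35.8 in Gr1/Mac1 cells and did not pass (-0.38, adjusted p = 0.66). Without Gr1/Mac1 replicate 2 it was at -1.08 (adjusted p = 0.13, range over alternatives 0.096 to 0.83).

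Klf10, induced early by TGF-beta, read 518 and 457 in leukemic marrow and 977 and 928 in Gr1/Mac1 cells on its 1 probe set, 1416029_at. The arrays within each group were close, and the log2 fold change was -0.95 (SE 0.26, adjusted p = 0.027). The call was lost without MN1 leukemic replicate 1 (-1.03, adjusted p = 0.13) and without MN1 leukemic replicate 2 (-0.86, adjusted p = 0.22), over a range of 0.00069 to 0.22.

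Klf9, which glucocorticoids and thyroid hormone induce, had no lower probe set. Its brightest, 1456341_a_at, read 1327 and 1711 in leukemic marrow and 1473 and 482 in Gr1/Mac1 cells. The groups overlapped through Gr1/Mac1 replicate 1, and the log2 fold change of 0.82 did not pass (SE 0.49, 95% interval -0.34 to 1.99). Without Gr1/Mac1 replicate 1 it was 1.61 and without Gr1/Mac1 replicate 2 it was 0.03. Over the alternatives it ran between -0.49, with control scaling, and 1.61. Probe set 1428288_at read 999 and 1199.7 in leukemic marrow and 634 and 321 in Gr1/Mac1 cells, and was higher by 1.25 (SE 0.36, adjusted p = 0.034). Probe set 1428289_at, on the same source sequence, read 489.96 and 872 in leukemic marrow and 312 and 195 in Gr1/Mac1 cells, and was higher by 1.35 (SE 0.39, adjusted p = 0.033).

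Neither Klf9 call was firm. That of 1428288_at was lost without MN1 leukemic replicate 1 (adjusted p = 0.10), MN1 leukemic replicate 2 (0.19) and Gr1/Mac1 replicate 2 (0.058), over a range of 0.0051 to 0.91. That of 1428289_at was lost without MN1 leukemic replicate 2 (0.27) and Gr1/Mac1 replicate 2 (0.091), over a range of 0.019 to 0.88. Both calls were also lost under quantile normalization (0.07 for 1428288_at and 0.084 for 1428289_at), equal medians (0.14 and 0.10), control scaling (0.91 and 0.88), no filter on low signals (0.055 for both) and no variance trend (0.071 and 0.062). The dim probe sets 1436952_at (0.23) and 1436763_a_at (1.44) did not pass. Probe set 1436763_a_at read 95.4 and 84.2 in leukemic marrow and 70.0 and 1.66 in Gr1/Mac1 cells, which lay far apart from each other. Its Gr1/Mac1 mean lay under the lowest kept mean signal, so it entered the test through the leukemic arrays. It was at 2.58 without Gr1/Mac1 replicate 1 (adjusted p = 0.023), against the reading of 1.66 alone, and at 0.30 without Gr1/Mac1 replicate 2 (adjusted p = 0.64). Of 2 probe sets under the filter, 1422264_s_at read 1.16 and 21.9 in leukemic marrow and 24.5 and 1.17 in Gr1/Mac1 cells.

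The direction of the 7 lower genes did not depend on how the arrays were scaled, and that of Klf9 did. The geometric mean signal of 18 hybridization controls, which are spiked into the labelled sample, was 11918 and 8949.8 in leukemic marrow and 4044 and 4168 in Gr1/Mac1 cells. Scaling the groups to these controls moved the median over all probe sets to -1.07 from 0.19, and setting every array to the same median moved it to -0.11. Klf2, Klf4, Klf6, Klf7, Klf3, Klf10 and Klf13 were called lower under quantile normalization, equal medians and control scaling. Klf3 lay between -2.42 and -0.96 and Klf10 between -2.24 and -1.16 under these 3. The brightest Klf9 probe set was at 0.73, 0.51 and -0.49, none of which passed (adjusted p = 0.29, 0.53 and 0.43), and with control scaling 1428288_at was at -0.05. Under control scaling Klf9 still lay above the median of all probe sets, and Klf3 and Klf10 lay below it.

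**Figure D3:**
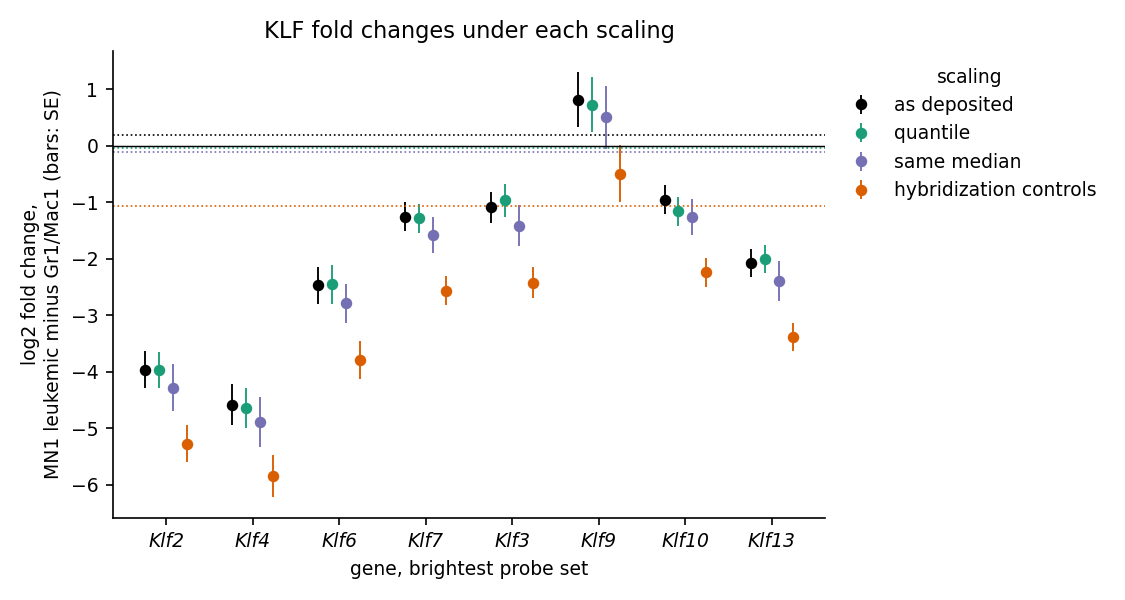
Log2 fold change (vertical, MN1 leukemic minus Gr1/Mac1, bars are the SE) of the brightest probe set of each KLF gene under the deposited scaling and 3 others, with dotted lines at the median of all tested probe sets under each. With control scaling all points move down with their median, and Klf9 passes below 0, to -0.49.

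Markers of other cell types differed between the groups too. All 8 tested monocyte and macrophage markers were lower in leukemic marrow (median -2.32). Their summed signal was 9217 and 6690 in leukemic marrow and 56616 and 34185 in Gr1/Mac1 cells. Of 10 neutrophil markers, 5 were lower and 0 higher, and their summed signal overlapped, at 398671 and 234054 in leukemic marrow and 398792 and 317856 in Gr1/Mac1 cells. S100a8, Camp, Ltf, Ngp and S100a9, markers of developing and mature granulocytes, overlapped between the groups. The 5 lower were Itgam (-3.31), Cxcr2 (-2.65), Csf3r (-2.55), Mmp9 (-2.52) and Mmp8 (-1.56). Itgam encodes CD11b, on which the Gr1/Mac1 cells were sorted, so its direction is no separate marker result. The sum leans on bright genes such as S100a8, at 90661 and 64532 in leukemic marrow and 69575 and 55476 in Gr1/Mac1 cells. All 10 stem and progenitor markers were higher, with sums of 37481 and 41744 in leukemic marrow and 2633 and 3579 in Gr1/Mac1 cells. So were 5 of 6 erythroid markers, 5 of 6 mast cell and basophil markers and 2 of 4 megakaryocyte markers. Of these higher markers, Sox4, Mecom, Adgrg1, Cpa3, Fcer1a and Vwf had Gr1/Mac1 means under the lowest kept mean signal of 47.65. They entered the test through the leukemic arrays. Of B cell and plasma cell markers 3 of 9 were lower, and of T and NK cell markers 1 of 4. Of dendritic cell markers 2 of 4 were lower and 1 was higher, Flt3, which stands in the stem and progenitor list too. Of stroma and endothelium markers 0 of 5 were called. Beside the counts of all these lists, 26.1% of all genes were higher, 15.0% lower and 41.1% called in either direction. Of the lower markers, Fcgr1, Jchain, Igha, Cd3d and Cd209a had leukemic means under the lowest kept mean signal. They entered the test through the Gr1/Mac1 arrays. Summed B cell and plasma cell signal was 2743 and 2269 in leukemic marrow and 21764 and 7456 in Gr1/Mac1 cells. The part of these differences in cell makeup in the KLF results was not tested.

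Klf4, Klf6 and Klf10 are induced as immediate early genes in many cell types. Of other such genes, Fos, Junb and Egr1 are given, chosen after their values had been seen and no measure of the class. Fos read 695 and 772 in leukemic marrow and 34786 and 27368 in Gr1/Mac1 cells (-5.37, adjusted p = 0.00018). Junb (-3.69, adjusted p = 0.0004) and Egr1 (-1.10, adjusted p = 0.027) were also lower. The Egr1 call was lost without MN1 leukemic replicate 1 (adjusted p = 0.22), MN1 leukemic replicate 2 (0.06) and Gr1/Mac1 replicate 1 (0.063), and with no variance trend (0.066). The part of this difference in the KLF results was not tested.

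Among the other family members, called genes lay in both directions. Of 7 tested KLF genes beyond the 8, 3 were higher and 1 lower (median 0.26), and of 5 tested SP genes 0 were higher and 1 lower (median 0.02), beside 26.1% higher and 15.0% lower over all genes. Klf1, the erythroid factor, read 9157 and 11465 in leukemic marrow and 54.3 and 101 in Gr1/Mac1 cells, higher by 6.82 (SE 0.32, adjusted p = 0.00018). Klf5, a growth regulator of epithelia, read 571 and 239 in leukemic marrow and 3148 and 3851 in Gr1/Mac1 cells. It was lower by -3.18 (SE 0.41, adjusted p = 0.002), with -3.78 and -2.57 when MN1 leukemic replicate 1 or 2 was left out. The SIN3-binding repressor gene Klf16 was higher by 2.0 (adjusted p = 0.0061), while Sp3 was lower, at -1.27 (adjusted p = 0.0094). The third higher gene, the CtBP-binding Klf12, read 87.4 and 114 in leukemic marrow and 20.1 and 19.0 in Gr1/Mac1 cells, where it lay under the lowest kept mean signal. It entered the test through the leukemic arrays alone, and its log2 fold change moved with the pseudocount, at 2.30 with 1, 1.71 with 16 and 0.97 with 64. Its call (adjusted p = 0.036) was lost under quantile normalization (0.059), equal medians (0.061) and no filter (0.069). Klf11 read 401 and 506 in leukemic marrow and 311 and 449 in Gr1/Mac1 cells, and it overlapped and did not pass (0.26, adjusted p = 0.57). Klf15 was under the filter, with no array above 8.92, and Klf8 had no probe set of its own here.

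Partner genes of the factors were called in 2 of 12 cases for corepressors and 3 of 4 for coactivators, beside 41.1% of all genes. Of the 12 corepressor genes, 1 was higher, the deacetylase gene Hdac2 (2.05, adjusted p = 0.0016), and 1 was lower, the CtBP complex gene Zfp217 (-0.96, adjusted p = 0.035). The CtBP genes Ctbp1 (0.23, adjusted p = 0.49) and Ctbp2 (-0.54, 0.19) and the SIN3 genes Sin3a (-0.02, 0.96) and Sin3b (-0.01, 0.98) did not pass. Of 4 coactivator genes, Ep300 (-1.32, adjusted p = 0.007) and Crebbp (-1.20, adjusted p = 0.0073), which encode the acetyltransferases p300 and CBP, were lower. Kat2a, another acetyltransferase gene, was higher by 2.56 (adjusted p = 0.0026). The calls of Hdac2, Kat2a, Klf1 and Klf5 were kept whichever array was left out, and others were not. Without MN1 leukemic replicate 1 the adjusted p was 0.061 for Crebbp, 0.075 for Ep300, 0.15 for Klf12, 0.053 for Sp3 and 0.19 for Zfp217. Without MN1 leukemic replicate 2 it was 0.079 for Crebbp, 0.083 for Klf16, 0.09 for Sp3 and 0.15 for Zfp217. Klf12 was at 0.052 without Gr1/Mac1 replicate 1, and Zfp217 at 0.061 without Gr1/Mac1 replicate 2. Klf16 was at 0.10 with control scaling.

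Inducers of KLF2 and KLF4 were called in both directions. The kinase ERK5, encoded by Mapk7, activates MEF2 factors, which turn on Klf2 and Klf4 in endothelial cells, and FOXO1 turns on Klf2 in T cells. Of 11 tested genes of this route, 2 were higher and 3 lower (median -0.18), and over all genes 26.1% were higher and 15.0% lower, so that 5 called of 11 is near the 41.1% called over all genes. Mef2c read 2024 and 1426 in leukemic marrow and 492 and 354 in Gr1/Mac1 cells, higher by 1.98 (SE 0.30, adjusted p = 0.0035). Mef2a read 1165 and 751 in leukemic marrow and 3460.3 and 2266 in Gr1/Mac1 cells, lower by -1.56 (SE 0.33, adjusted p = 0.011). Kinase genes upstream of ERK5 went both ways. Map3k3 (-2.09, adjusted p = 0.0024) and Map3k2 (-1.07, adjusted p = 0.026) were lower, and Map2k5 was higher (0.85, SE 0.26, adjusted p = 0.039). Mapk7 itself (-0.68, 0.24) and Foxo1 (-0.18, 0.77) did not pass. Of 8 ubiquitin ligase genes linked to KLF turnover, 2 were lower, Vhl (-1.05, adjusted p = 0.015) and Smurf2 (-0.95, adjusted p = 0.031), and 0 were higher, beside the same shares. Without MN1 leukemic replicate 1 the adjusted p was 0.073 for Map3k2, 0.12 for Vhl and 0.095 for Smurf2. Without MN1 leukemic replicate 2 it was 0.23, 0.13 and 0.26 for the same genes and 0.092 for Mef2a. Without Gr1/Mac1 replicate 1 it was 0.053 for Map3k2 and 0.059 for Smurf2, and with control scaling Mef2c was at 0.096.

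**Figure D4:**
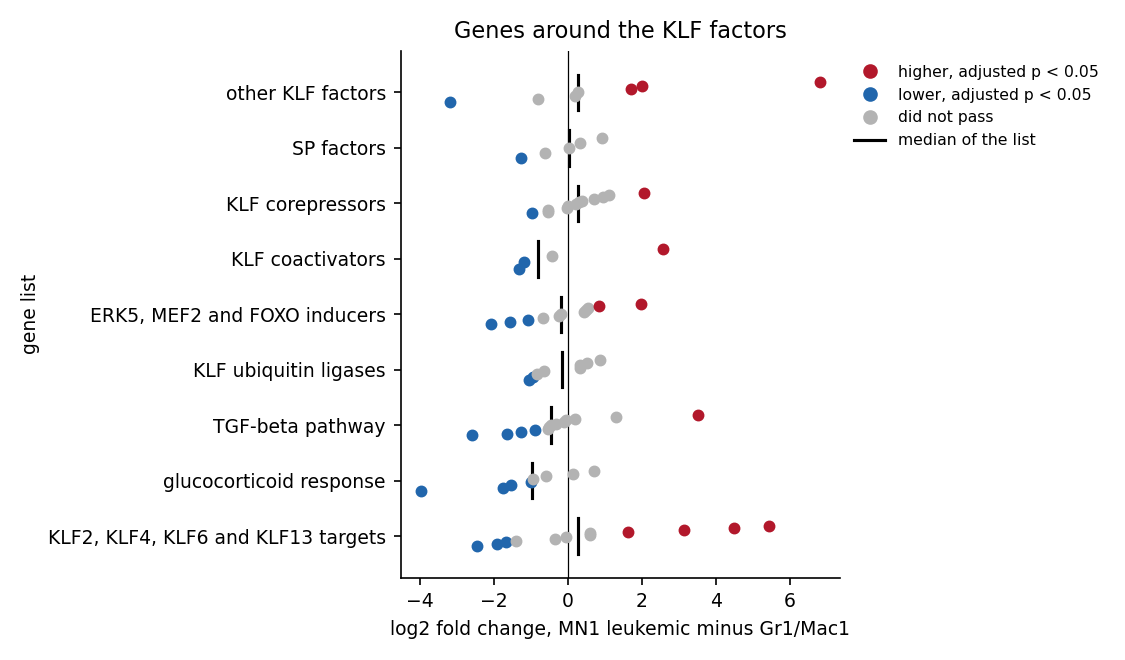
Log2 fold change (horizontal, MN1 leukemic minus Gr1/Mac1) of each tested gene in 9 lists around the KLF factors, 1 point a gene; colour shows the limma call and the black tick the list's median. Every list but those of SP factors, ubiquitin ligases and glucocorticoid response holds calls in both directions.

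In the TGF-beta pathway, the route that induces Klf10, 4 of 13 tested genes were lower and 1 was higher (median -0.46), near the 41.1% of all genes called in either direction (15.0% lower, 26.1% higher). The receptor gene Acvrl1 (-2.60, SE 0.39, adjusted p = 0.0033), the SMAD repressor gene Skil (-1.64, SE 0.31, adjusted p = 0.0073) and the signal transducer gene Smad2 (-1.27, SE 0.27, adjusted p = 0.012) were lower. The co-receptor gene Tgfbr3 read 1818 and 2045 in leukemic marrow and 159 and 147 in Gr1/Mac1 cells, higher by 3.53 (SE 0.26, adjusted p = 0.00044). The signalling receptors Tgfbr1 (-0.55, 0.18) and Tgfbr2 (-0.32, 0.32) did not pass. Of 8 glucocorticoid response genes, 4 were lower and 0 higher (median -0.96), beside the same shares over all genes, while the 2 called Klf9 probe sets were higher. Dusp1, a phosphatase gene that is also an immediate early gene, read 1969 and 1004 in leukemic marrow and 26441 and 19308 in Gr1/Mac1 cells (-3.99, SE 0.37, adjusted p = 0.00076). Tsc22d3, the glucocorticoid-induced leucine zipper gene (-1.77, adjusted p = 0.0088), and Nr3c1, the glucocorticoid receptor gene (-1.53, adjusted p = 0.0066), were lower. Smad2 was at 0.085 without MN1 leukemic replicate 1. Without MN1 leukemic replicate 2 the adjusted p was 0.066 for Nr3c1, 0.072 for Skil, 0.075 for Smad2 and 0.075 for Tsc22d3.

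Genes known in other cells as targets of KLF2, KLF4, KLF6 or KLF13 were called in both directions. Of 12 tested, 4 were higher and 3 lower (median 0.27), against 26.1% higher and 15.0% lower over all genes, and this list was written with earlier results of these data known. The cell cycle inhibitor genes Cdkn2b and Cdkn1a were higher. Cdkn2b read 1037 and 2161 in leukemic marrow and 18.1 and 20.5 in Gr1/Mac1 cells, under the lowest kept mean signal (adjusted p = 0.00049). It entered the test through the leukemic arrays alone, and its log2 difference moved with the pseudocount, at 6.21 with 1, 5.43 with 16 and 4.23 with 64. Cdkn1a read 2072 and 5579 in leukemic marrow and 447 and 309 in Gr1/Mac1 cells (3.14, SE 0.47, adjusted p = 0.0032), with 3.85 and 2.43 when MN1 leukemic replicate 1 or 2 was left out. Tfpi, an inhibitor of coagulation, was higher by 4.5 (SE 0.36, adjusted p = 0.00053). Thbd, the other higher gene, read 743 and 856 in leukemic marrow and 326 and 189 in Gr1/Mac1 cells (1.62, SE 0.34, adjusted p = 0.01). The counts do not separate targets that the factors induce from those they repress. The chemokine receptor gene Ccr2, a monocyte marker, was lower by -2.46 (SE 0.25, adjusted p = 0.00096), and it stands in the monocyte list too. The other lower genes were Cx3cr1 (-1.67, adjusted p = 0.011), which stands in that list as well, and Cd14 (-1.92, adjusted p = 0.0086). S1pr1, the lymphocyte egress receptor gene that KLF2 induces, did not pass (0.61, adjusted p = 0.31), and Ccl5, the target of KLF13, was under the filter.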

How the data were processed

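The authors deposited linear intensities for 45101 probe sets on 4 arrays, and the submitters' processing notes name MAS5 and GCOS 1.3.0. Scale target, settings and detection calls were not used here. Array values have no read depth, so the 2 arrays a group limit the precision. Beyond the design text, no label says that the arrays of a group came from separate mice. The 2 Gr1/Mac1 arrays differed in the sex-linked genes Eif2s3y and Xist. Gene symbols are those of GEO's platform annotation, of unknown age; 34945 probe sets had 1 symbol, 932 several and 9160 none here, and 0 symbols changed through a RefSeq table (GRCm38.p6). The 64 control probe sets and the 40% with the lowest mean signal were left out, which kept 27022. The comparison was fitted on log2(signal + 16) by lmFit and eBayes of limma 3.58.1 (R 4.3.3; two-sided, variance trend); p values were adjusted by Benjamini-Hochberg across the 27022 and called under 0.05. Code was tested on simulated data. The brightest probe set, by mean over the arrays, stood for its gene. The text names all KLF probe sets and, of 9 lists, up to 3 called genes with the largest change one way and 1 the opposite way, with Klf1. Others named (Klf11, Klf15, Klf8, Ctbp1, Ctbp2, Sin3a, Sin3b, Mapk7, Map2k5, Foxo1, Tgfbr1, Tgfbr2, S1pr1, Thbd, Ccl5, Cx3cr1, Cd14, Itgam, Mn1, Eif2s3y, Xist, the markers, Fos, Junb, Egr1) were added after their values were seen. The members, the 9 lists and 10 marker lists were chosen with earlier results of these data known. No gene is named for a pattern like a member's, because 4 arrays in 2 groups cannot rank one. The 16 alternatives changed scaling, pseudocount, filter, probe sets, variance model, replicate block or 1 array.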

Additional observations from a re-analysis of the deposited data

Results flagged for a closer look

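The Klf9 probe set 1452723_at lay under the filter on low signals and outside the test, yet both leukemic arrays read above both Gr1/Mac1 arrays. It read 19.8 and 59.1 in leukemic marrow, a mean of 39.5 ± 27.8 (SD, n = 2), and 3.99 and 16.3 in Gr1/Mac1 cells, a mean of 10.2 ± 8.72 (SD, n = 2). It shares its source sequence with the 2 Klf9 probe sets that were called higher, so it is no independent reading.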

How the results depend on the processing

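Klf2, Klf4, Klf6 and Klf13 kept their call under all 16 alternatives. The number of KLF genes called was 7 in the analysis reported and 4 to 8 when 1 array was left out, the array left alone being taken to vary as the other group does. It was 5 without a variance trend (Klf3 and Klf10 lost) and 8 without probe sets that can match several transcripts, since Klf9 is then read from 1428288_at. Changed probe sets numbered 9428, against 14657 with control scaling, 5375 at gene level with fewer features tested, and 3693 to 10345 with 1 array left out. Of the 9 lists' genes, 33 were called, 58 with control scaling and 15 to 37 with 1 array left out. The share of changed probe sets that were higher was 60.9%, against 51.4% with quantile normalization, 45.0% at equal medians and 11.6% with control scaling. Signs turned in a few probe sets, and the cause was not tested. With control scaling these were Klf9 1456341_a_at (-0.49), 1428288_at (-0.05) and 1436952_at (-0.83). Klf9 1436952_at was at -0.0047 with quantile normalization and -0.03 at equal medians, and Klf3 1441200_at was at 0.00043 with a pseudocount of 64. With 1 array left out, Klf6 1459718_x_at ran between -1.86 and 0.32, Klf3 1441200_at between -0.36 and 0.36 (0.09 without Gr1/Mac1 replicate 2) and Klf9 1436952_at between -0.12 and 0.58. Arrays of the same number did not deviate together (correlation -0.04 across probe sets), and the labels do not pair them. With a replicate block 9822 probe sets and 7 KLF genes were called, with 34 genes of the lists, and Klf12 lost its call (adjusted p = 0.057).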
